A study of Homo sapiens with 6 samples.

Results

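A set of 118 genes reached a chosen limit, a log2 signal of 5, in SK-N-AS neuroblastoma cells growing as an attached layer. The set lay under that limit in spheroids of the same line. It reached the limit in spheroids grown from cells that had first been exposed to a DNA methylation inhibitor. A gene is called measured here where it is at or above this limit. The set was taken from 19775 genes with a probe set of a single gene symbol. Where a gene had several probe sets, the brightest on average over the 6 arrays stood for it, and a member had a log2 GCRMA signal of 5 or more on both arrays of the attached and of the pretreated culture and under 5 on both arrays of the untreated spheroids. KLF4, NOTCH2, GLI2, ZIC2, TGFBR2 and genes with symbols starting COL or HOX were set aside, and 9 of the genes set aside met the same limits. The member genes were therefore chosen by their own values, and their low level in spheroids is a description and not a finding.

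SK-N-AS is a human neuroblastoma cell line, and messenger RNA was measured in 3 cultures of it on 2 Affymetrix HG-U133 Plus 2.0 arrays each. iCSC cells received 2.5 uM 5AdC (5-aza-2'-deoxycytidine) over 5 days while attached and were then grown as spheroids in medium without serum. Sphere cells grew as spheroids in medium without serum and had no pretreatment. Monolayer cells grew attached and had no pretreatment. Folds against Sphere are lower bounds, written "at least", with each value under log2 5 set to 5. All 3 cultures are the same line, and iCSC and Sphere share the spheroid culture. No culture was labelled as attached cells measured directly after 5AdC, so the agent and the later spheroid growth cannot be told apart in the comparison of iCSC with Monolayer. Whether the paired arrays represent independent cell cultures is not stated in the labels, so the spread behind each p-value may be technical only.

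Cells that attach to a dish spread on integrin contacts, build actin stress fibres and keep the transcriptional coactivators YAP and TAZ of the Hippo pathway in the nucleus. Cells that round up into spheroids lose these contacts. 5AdC is incorporated into DNA, traps DNA methyltransferases and lowers methylation at CpG dinucleotides, and methylated CpG-rich promoters are usually silent. SK-N-AS is known as a line with mesenchymal-like traits and no amplification of MYCN.

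Of 9446 genes measured on both Monolayer arrays, 362 lay under log2 5 on both Sphere arrays. In iCSC, 118 of these, the members, were measured on both arrays (32.6% of the 362), 26 were measured on 1 of 2 arrays (7.2%), and 218 were under the limit on both (60.2%). The members and the 218 genes under the limit in both spheroid cultures had like levels in Monolayer, with a median signal of 7.34 for the members and 7.02 for the 218. Their Sphere signals differed, but both sets were chosen by the limit in Sphere and split by the limit in iCSC. The difference can thus come with the choice of genes, which was not tested. Both Sphere arrays lay under log2 3.5 for 34 of the 118 members (28.8%) and for 161 of the 218 (73.9%). The median Sphere signal was 4.04 for the members and 2.76 for the 218, both under the limit. That limit is a chosen cut, and the medians of the arrays over all probe sets lay between 2.78 and 2.83. A member under the limit in Sphere may therefore be reduced and not absent. Loss of a signal on these arrays can come from fewer cells that make the RNA or from less RNA per cell, which cannot be told apart in bulk samples.

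Over the members, the mean signal of a gene ranged from 5.03 to 11.84 in iCSC, from 1.55 to 4.95 in Sphere and from 5.02 to 13.38 in Monolayer. The iCSC level was at least 2-fold above the limit for 79 members and at least 8-fold above it for 25. The other 39 lay within 2-fold of the limit, so that for them presence in iCSC rests on a small step. Every one of the 6 arrays was 0.1 or more away from the limit for 96 members, 1 or more for 28 and 2 or more for 10. The map of signals by array shows the low Sphere pair in each row and the broad range of levels on both sides of it.

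**Figure D1:**
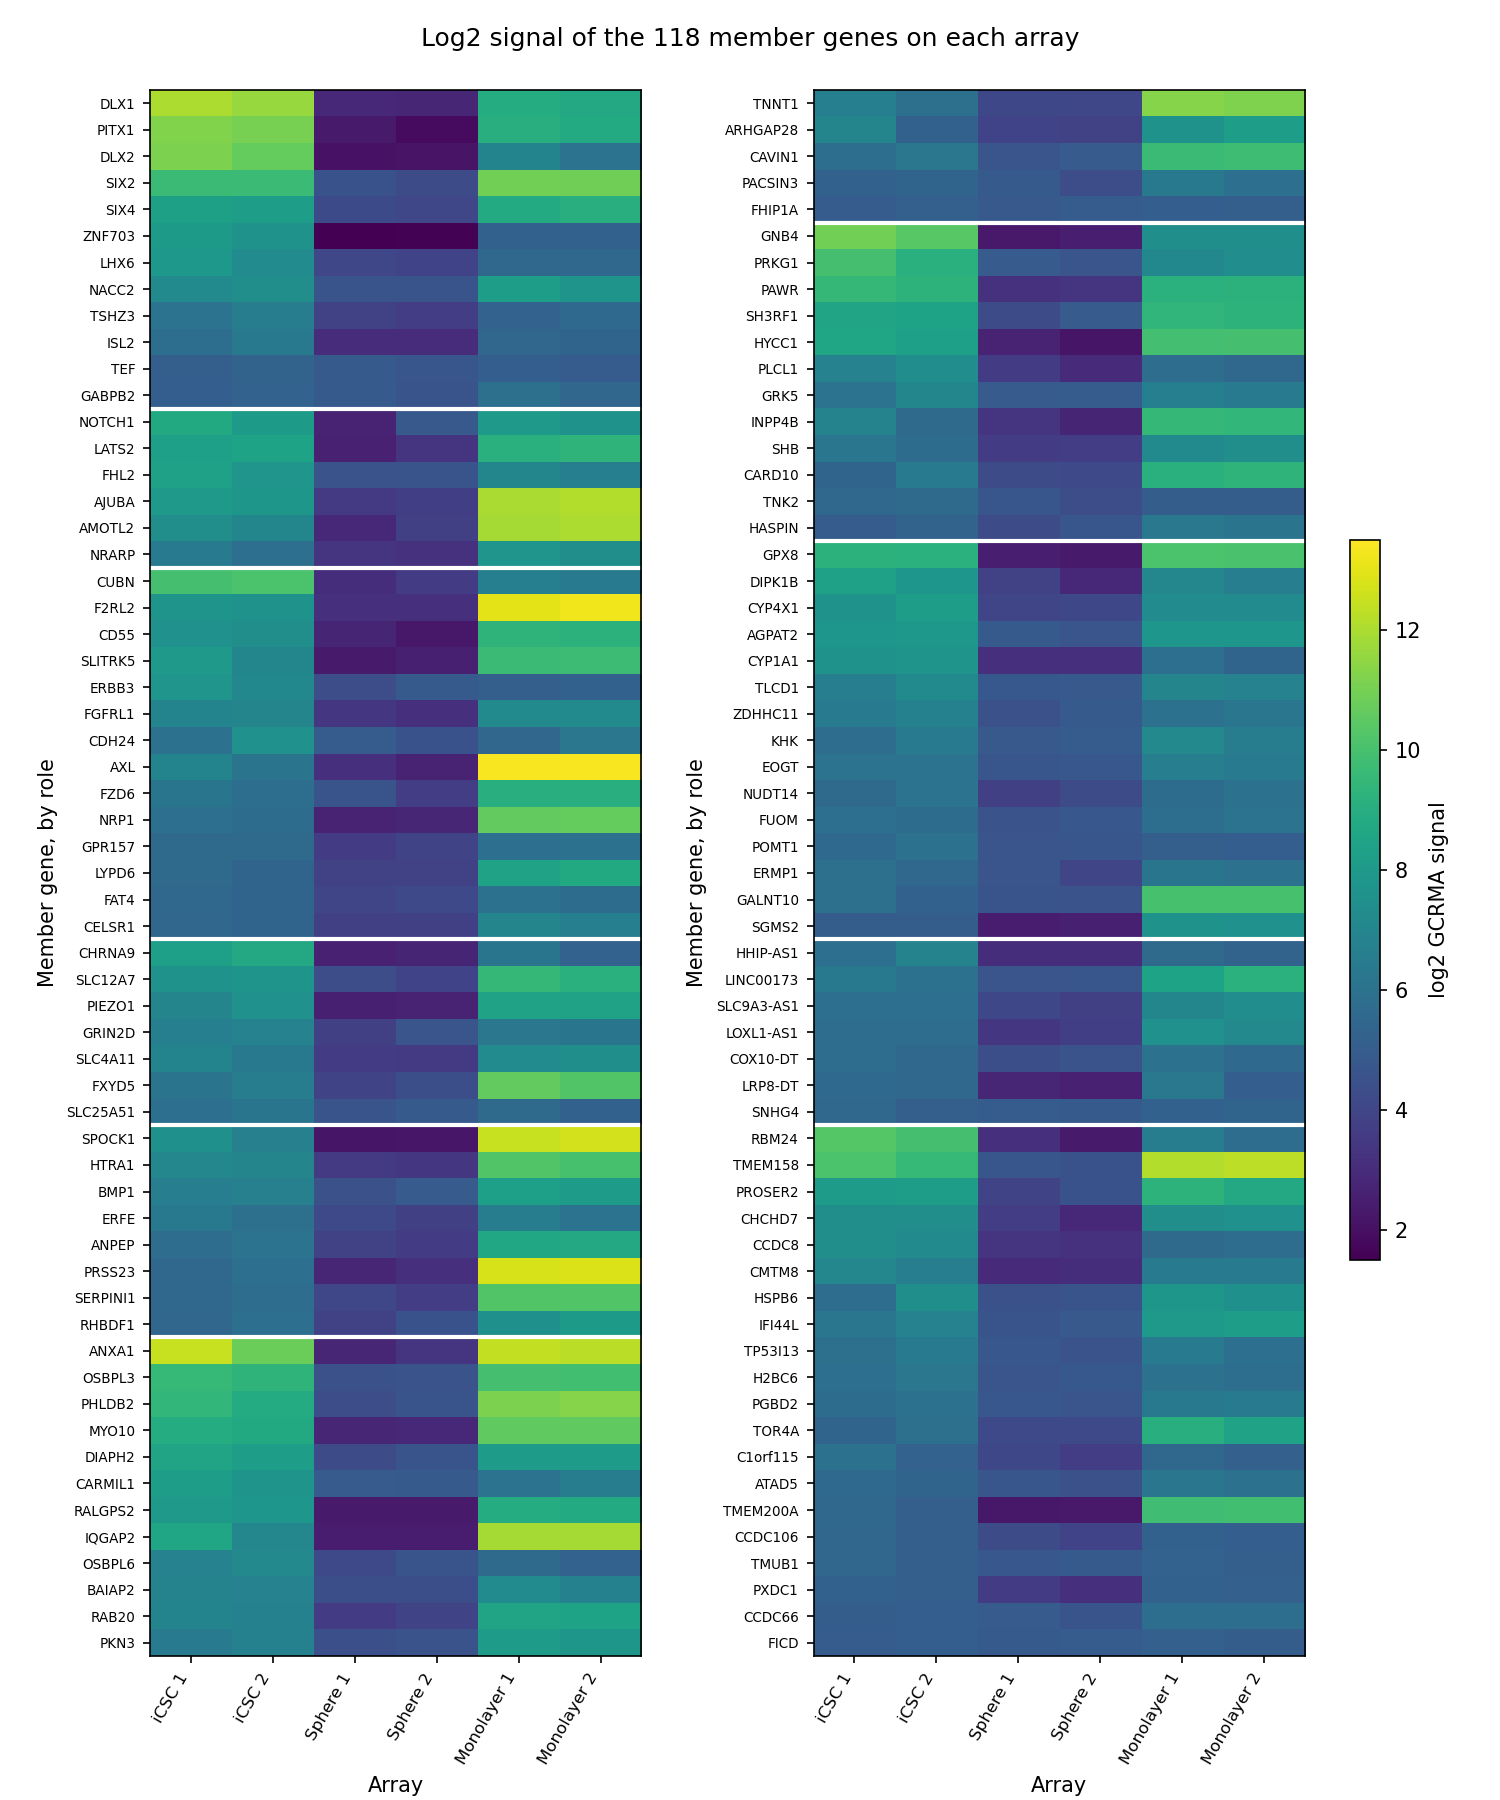
Log2 signal of the 118 members (rows, grouped by role with white lines between roles and sorted by iCSC level within a role) on the 6 arrays (columns); colour runs from low (dark) to high (bright). Both Sphere columns are under 5 in every row by the rule, while the iCSC means reach 11.84 for DLX1 and the Monolayer means reach 13.38 for AXL.

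Since 5AdC acts at CpG dinucleotides, the sequences in front of 7 members are shown for their CpG content. DLX1, DLX2, PITX1 and GNB4 are 4 of the members with the highest iCSC signal. ANXA1, CUBN and AMOTL2 are shown beside them as members that have windows nearly free of CpG. Each line gives the 150 bases before the RefSeq start site on the gene's strand (GRCh38.p14), in lower case with CpG dinucleotides in capitals.

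DLX1, chr2:172085357-172085506, plus strand: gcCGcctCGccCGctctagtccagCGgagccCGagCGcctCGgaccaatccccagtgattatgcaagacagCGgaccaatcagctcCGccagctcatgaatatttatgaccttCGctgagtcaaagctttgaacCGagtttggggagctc
DLX2, chr2:172102901-172103050, minus strand: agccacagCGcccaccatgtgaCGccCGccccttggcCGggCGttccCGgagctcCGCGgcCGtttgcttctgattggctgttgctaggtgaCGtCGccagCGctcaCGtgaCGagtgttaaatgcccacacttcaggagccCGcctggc
PITX1, chr5:135034229-135034378, minus strand: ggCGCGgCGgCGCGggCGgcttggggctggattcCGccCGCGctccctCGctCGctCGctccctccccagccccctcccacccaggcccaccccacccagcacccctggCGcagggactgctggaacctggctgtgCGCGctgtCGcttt
GNB4, chr3:179451471-179451620, minus strand: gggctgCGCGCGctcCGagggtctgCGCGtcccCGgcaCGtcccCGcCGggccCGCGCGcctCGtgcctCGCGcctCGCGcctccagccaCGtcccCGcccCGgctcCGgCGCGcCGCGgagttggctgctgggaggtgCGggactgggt
ANXA1, chr9:73151715-73151864, plus strand: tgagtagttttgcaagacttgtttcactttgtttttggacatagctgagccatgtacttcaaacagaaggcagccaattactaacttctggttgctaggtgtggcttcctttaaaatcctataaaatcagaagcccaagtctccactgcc
CUBN, chr10:17129812-17129961, minus strand: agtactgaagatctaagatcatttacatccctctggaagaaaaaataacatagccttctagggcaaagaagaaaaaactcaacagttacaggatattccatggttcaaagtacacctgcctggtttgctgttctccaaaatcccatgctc
AMOTL2, chr3:134375418-134375567, minus strand: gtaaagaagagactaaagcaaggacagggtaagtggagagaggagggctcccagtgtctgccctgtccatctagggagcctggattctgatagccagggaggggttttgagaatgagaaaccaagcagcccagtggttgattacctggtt

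The shown windows hold 11 CpG in DLX1, 15 in DLX2, 16 in PITX1 and 27 in GNB4, against 0 each in ANXA1, CUBN and AMOTL2. Thus genes with the highest iCSC signals stood on both kinds of promoter: CUBN, ANXA1 and GNB4 all had an iCSC mean above 10. RefSeq promoter windows of 300 bases (250 before the start site and 50 after it) were found for 95 of the 118 members. A window was called CpG-rich at a GC content of 50% or more and a CpG count of at least 0.6 of that expected from its C and G. By this measure 68 of the 95 member windows were CpG-rich (71.6%), with a median of 26 CpG and an observed over expected ratio of 0.79. Among 7918 windows of genes measured in Monolayer the share was 84.9%, with a median of 27 CpG and a ratio of 0.86. Over all 27305 windows of the table it was 46.9%, with a median of 14 CpG and a ratio of 0.58. Of the 65 genes measured in Sphere and Monolayer and under the limit in iCSC, 56 had a window, and 62.5% of these were CpG-rich, with a median of 23.5 CpG and a ratio of 0.73. The CpG-rich share of the members thus lay below that of Monolayer-measured genes and above those of the 65 genes and of all promoters. Of the 218 genes under the limit in both spheroid cultures, 161 had a window (73.9%), under the 80% asked of a set here, so a comparison with them is void. Among those 161 windows 55.9% were CpG-rich, with a median of 20 CpG and a ratio of 0.70. DNA methylation was not measured here, so these are features of the sequence alone.

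**Figure D2:**
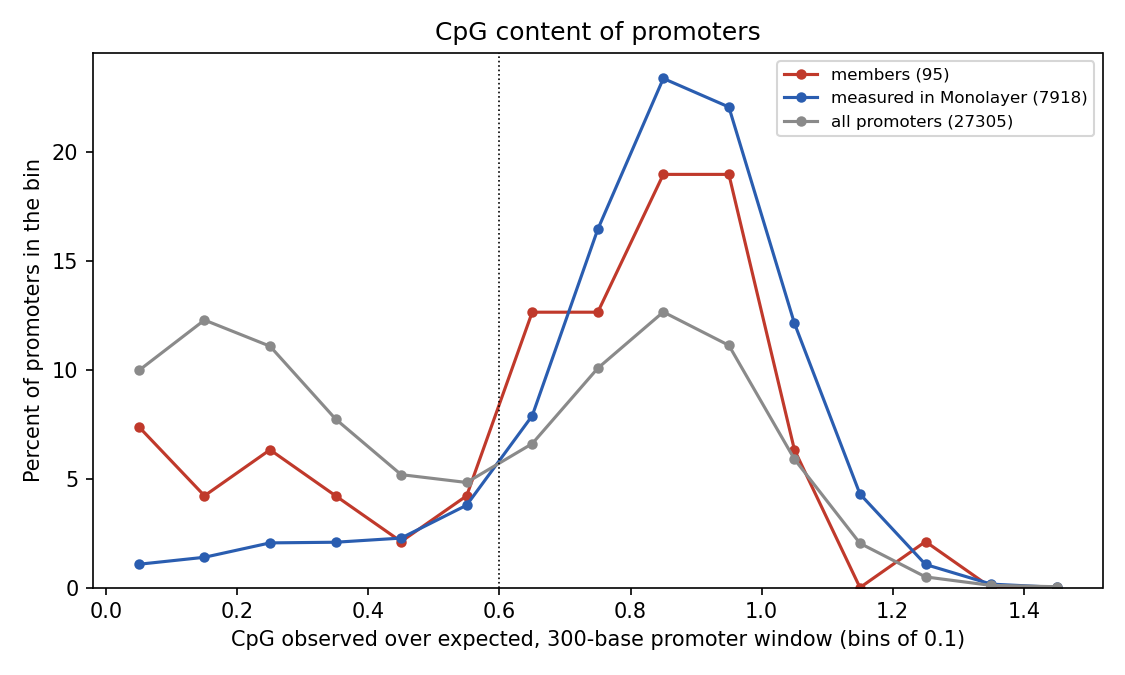
Percent of promoter windows (vertical axis) by CpG observed over expected (horizontal axis, bins of 0.1) for the 95 members with a window, 7918 genes measured in Monolayer and all 27305 windows; the dotted line marks 0.6. The curve of the members peaks with that of the Monolayer genes but has a larger low-CpG part on the left.

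Motifs were searched by letters on both strands of the same windows, and none of those spelled out here contains another. The AP-1 letters TGANTCA stood in 5 member windows (5.3%), against 7.8% of all windows and 3.9% of those of Monolayer-measured genes. The TEAD letters GGAATG stood in 8 (8.4%), against 14% and 10.3%. The E-box CAGGTG, which ZEB and SNAI repressors bind, stood in 27 (28.4%), against 20.6% and 16.5%. The CArG box of SRF stood in 2 (2.1%, FHL2 and CYP1A1), against 1.3% and 1.1%. A match is a run of letters and not a measured site.

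The rule asks that both iCSC and Monolayer reach the limit and sets no order between them, and that difference was tested. It also asks for Sphere under the limit, so every member is lower in Sphere than in Monolayer, and iCSC shares the spheroid culture. The backgrounds below were not chosen in this way. A surplus of members lower in iCSC can thus come with the choice of members, which was not tested. With limma over 10459 genes and Benjamini-Hochberg adjustment, 23 of the 118 members were higher in iCSC than in Monolayer (19.5%), 58 were lower (49.2%) and 37 were not called. Over all tested genes 29.0% were called higher and 26.6% lower, 55.6% in either direction. Among the 9058 tested genes at or above the limit on all iCSC and Monolayer arrays, 26.1% were higher and 26.5% lower (52.6% in either direction). The member share called lower was thus above both of these shares and the share called higher was below both. The median difference over members was -0.54 on the log2 scale, with a range of -7.10 to 4.43, beside 0.02 over all tested genes. For 55 members the 2 cultures lay within 2-fold of each other, 18 were at least 2-fold higher in iCSC and 45 at least 2-fold lower. Among the 9058 genes these counts were 7388, 872 and 798. Both iCSC arrays lay above both Monolayer arrays for 32 members and below them for 65, and the arrays overlapped for 21. The share over all tested genes was not counted for this ordering, so it describes the members only. By calls and by 2-fold steps, members stood below their Monolayer level in iCSC more often than above it.

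**Figure D3:**
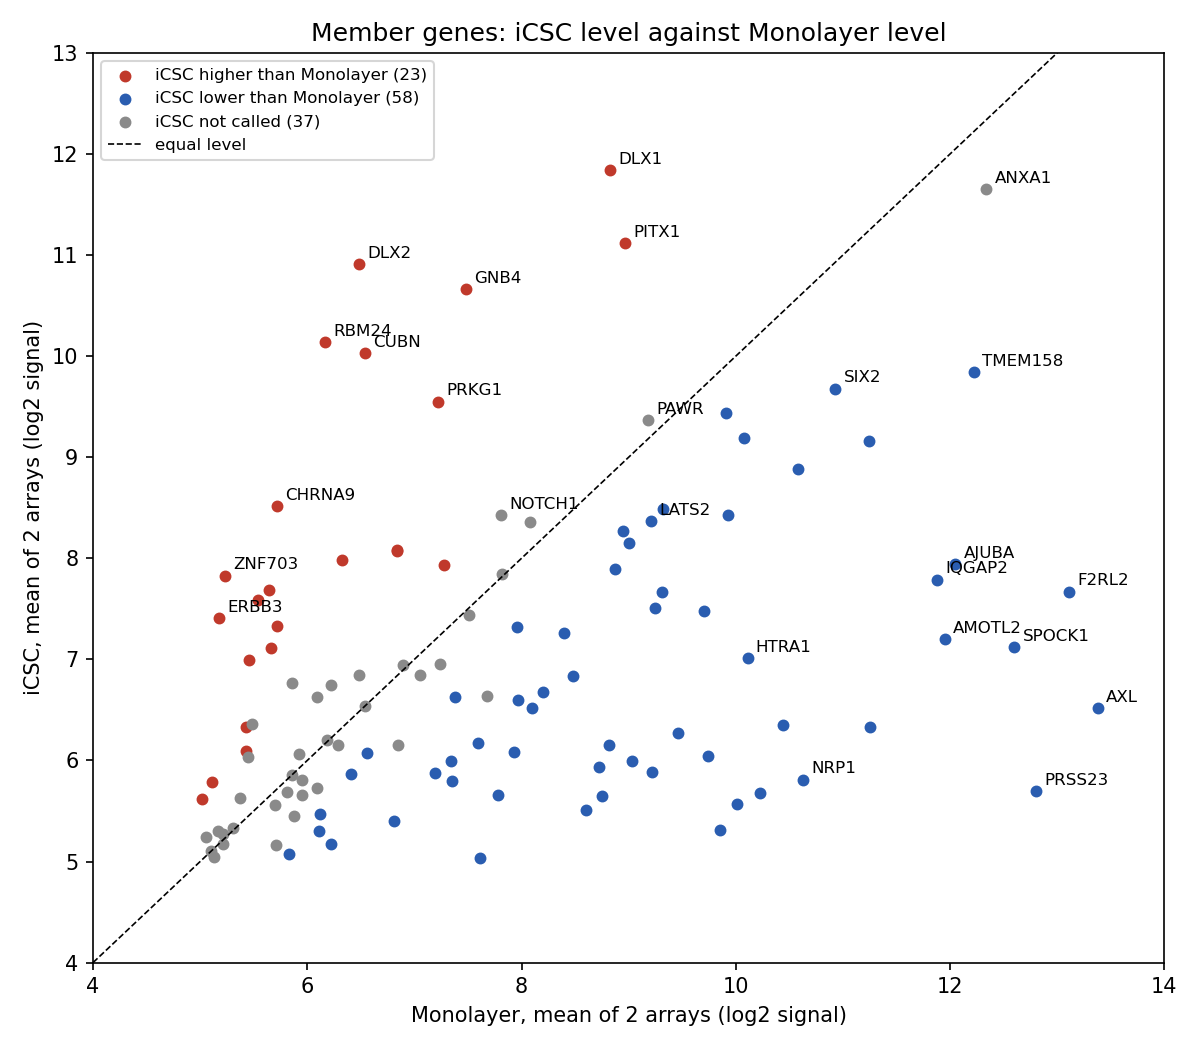
Mean log2 signal in iCSC (vertical axis) against Monolayer (horizontal axis) for the 118 members, 2 arrays per mean; points are coloured by the limma call at an adjusted p under 0.05 and the dashed line marks equal levels. DLX1, DLX2, PITX1, GNB4, RBM24 and CUBN stand far above the line, and AXL, PRSS23, F2RL2 and SPOCK1 far below it.

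The transcription factors were the one role in which more members were higher than lower in iCSC: 7 of 12 were higher, 3 were lower and 2 were not called, with a median difference of 0.78. DLX1, a homeobox factor of forebrain interneurons and craniofacial mesenchyme, stood at 12.02 and 11.67 on the iCSC arrays, at 2.86 and 2.81 on the Sphere arrays and at 8.93 and 8.73 on the Monolayer arrays. The iCSC level was at least 115-fold above Sphere and, with no overlap of the arrays, 3.02 ± 0.17 (log2, SE) above Monolayer, 8.09-fold (adjusted p = 2.69e-05). Its neighbour DLX2, a homeobox factor expressed with it in those tissues, stood at 11.15 and 10.67 in iCSC, 2.09 and 2.12 in Sphere and 6.90 and 6.06 in Monolayer. The difference between iCSC and Monolayer, 4.43 ± 0.31, or 21.5-fold, was the largest positive one among the members (adjusted p = 6.49e-05). PITX1, a homeobox factor of the hindlimb and pituitary, had 11.23 and 11.02 in iCSC, 2.37 and 1.83 in Sphere and 9.09 and 8.85 in Monolayer. It was 4.44-fold higher in iCSC than in Monolayer (2.15 ± 0.22, adjusted p = 0.000384), so that all 3 of these homeobox genes exceeded their Monolayer level.

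Further factors of this role differed in the size of the step. ZNF703, a corepressor amplified in some breast cancers, had the lowest Sphere signals of all members, 1.53 and 1.57, beside 8.05 and 7.60 in iCSC and 5.22 and 5.24 in Monolayer. It was 6.04-fold higher in iCSC than in Monolayer (adjusted p = 0.000106). LHX6, a LIM homeobox factor of cortical interneurons, reached 7.91 and 7.28 in iCSC, with 4.07 and 3.92 in Sphere and 5.54 on both Monolayer arrays, and was 4.14-fold higher in iCSC (adjusted p = 0.000599). TSHZ3, a zinc finger homeobox factor, and ISL2, a LIM homeobox factor of motor neurons, were higher by smaller steps of 0.90 ± 0.23 and 0.66 ± 0.21. The adjusted p was 0.0166 for TSHZ3, whose call was lost without the first Monolayer array (0.0926) and without variance moderation (0.0749), and 0.0376 for ISL2, whose call was lost under 9 of 15 alternatives. The homeobox factors SIX2 and SIX4, which act in kidney, muscle and craniofacial progenitors, went the other way. SIX2 had 9.66 and 9.69 in iCSC, 4.51 and 4.22 in Sphere and 10.95 and 10.91 in Monolayer, 2.38-fold lower in iCSC than in Monolayer (adjusted p = 0.000602). SIX4 was 1.59-fold lower (adjusted p = 0.014), a call lost without the second iCSC array (0.0504) or the second Monolayer array (0.093). NACC2, a BTB-domain repressor, was 1.56-fold lower (adjusted p = 0.0432), and 10 of 16 alternatives did not call it.

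**Figure D4:**
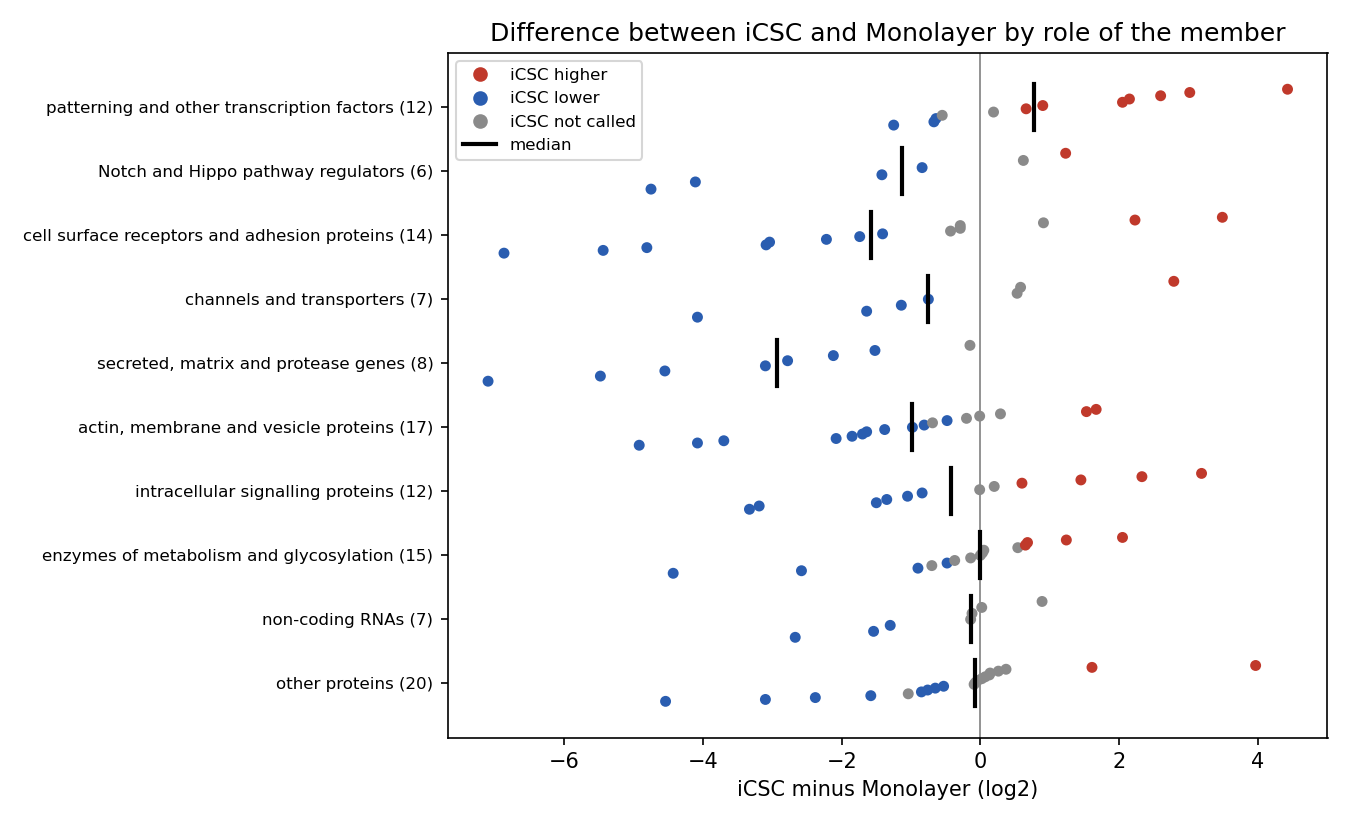
Difference in log2 signal between iCSC and Monolayer (horizontal axis) for each member (point) by role (rows, number of genes in brackets); colour gives the limma call and the black bar the median of the role. The transcription factors lie mostly right of 0 with a median of 0.78, and the secreted, matrix and protease genes all lie left of it with a median of -2.94.

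Among the 6 regulators of the Notch and Hippo pathways, 1 was higher in iCSC than in Monolayer, 4 were lower and 1 was not called. NOTCH1, a receptor that is cleaved on ligand binding to release a transcriptional coactivator, stood at 8.81 and 8.05 in iCSC, 2.68 and 4.83 in Sphere and 7.98 and 7.64 in Monolayer. Its Sphere arrays differed by 2.14, the widest gap of any member in that culture, and the second lay only just under the limit. The difference between iCSC and Monolayer was 0.62 ± 0.66 (adjusted p = 0.459) and was not called. The fit shares 1 spread over the 3 cultures, so this SE carries the gap between the Sphere arrays. The limma adjusted p was 0.144 with iCSC and Monolayer arrays only and 0.0978 with a floor at log2 5, again not called. NRARP, a Notch target that dampens Notch signalling, had 6.43 and 5.90 in iCSC, 3.30 and 3.20 in Sphere and 7.74 and 7.44 in Monolayer, 2.68-fold lower in iCSC than in Monolayer (adjusted p = 0.00257).

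The Hippo pathway members differed widely in how near iCSC lay to Monolayer. LATS2, a kinase that phosphorylates YAP, had 8.27 and 8.47 in iCSC, 2.61 and 3.32 in Sphere and 9.12 and 9.31 in Monolayer. It was 1.79-fold lower in iCSC than in Monolayer (adjusted p = 0.0313). The call was lost under 6 of 16 alternatives, among them each that left out an iCSC or Monolayer array, with adjusted p-values of 0.0592 to 0.154. AJUBA, a LIM protein of cell junctions that inhibits LATS kinases, had 8.01 and 7.86 in iCSC, 3.52 and 3.72 in Sphere and 11.96 and 12.13 in Monolayer. AMOTL2, an angiomotin that binds YAP at junctions, had 7.41 and 7.0 in iCSC, 2.89 and 3.79 in Sphere and 11.88 and 12.02 in Monolayer. AJUBA and AMOTL2 thus stood well above the limit in iCSC and yet 17.3-fold and 26.9-fold under Monolayer (adjusted p = 4.76e-06 and 5.06e-05). FHL2, a LIM-only cofactor, was the member of this role that was higher in iCSC, at 8.38 and 7.75, with 4.59 and 4.62 in Sphere and 7.02 and 6.66 in Monolayer. In the gene lists used below, FHL2 stood with SRF and contractile cytoskeleton genes and not with YAP and TEAD pathway genes. Its difference was 1.23 ± 0.25 (adjusted p = 0.0066), and the call was lost without the second Monolayer array (0.0539) and without variance moderation (0.0591).

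On the cell surface, 2 of 14 receptors and adhesion proteins were higher in iCSC than in Monolayer, 8 were lower and 4 were not called, with a median of -1.57. AXL, a receptor tyrosine kinase of mesenchymal tumour cells, had the highest Monolayer signal of all members, 13.39 and 13.37. It had 6.91 and 6.12 in iCSC and 3.18 and 2.66 in Sphere. Its iCSC level was 117-fold under Monolayer (-6.87 ± 0.30, adjusted p = 8.27e-06). Another AXL probe set read 2.30 and 2.29 in iCSC, 2.27 and 2.31 in Sphere and 7.37 and 6.19 in Monolayer, so that with that probe set AXL was not measured in iCSC. F2RL2, the thrombin receptor PAR3, had 7.70 and 7.64 in iCSC, 3.18 and 3.10 in Sphere and 13 and 13.22 in Monolayer, and iCSC was 43.4-fold under Monolayer (adjusted p = 1.24e-06). Its other probe set was under the limit in iCSC as well, at 3.20 and 3.11. NRP1, a coreceptor for semaphorins and VEGF, had 5.90 and 5.73 in iCSC, 2.69 and 2.77 in Sphere and 10.61 and 10.65 in Monolayer, 28.1-fold lower in iCSC than in Monolayer (adjusted p = 3.00e-06). Another NRP1 probe set read 2.35 and 2.39 in iCSC, 2.27 and 2.28 in Sphere and 7.35 and 6.80 in Monolayer, so that it too was not measured in iCSC there. FZD6, a Frizzled receptor for WNT ligands, was 8.25-fold lower and CD55, which shields cells from complement, 3.35-fold lower (adjusted p = 0.000407 and 0.000627).

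CUBN and ERBB3 were the 2 surface receptors that exceeded their Monolayer level. CUBN, the endocytic receptor cubilin of kidney and intestine, had 9.96 and 10.10 in iCSC, 3.08 and 3.58 in Sphere and 6.70 and 6.38 in Monolayer. It was 11.3-fold higher in iCSC than in Monolayer (3.49 ± 0.23, adjusted p = 4.63e-05). ERBB3, a neuregulin receptor of neural crest and Schwann cells, had 7.74 and 7.08 in iCSC, 4.32 and 4.89 in Sphere and 5.15 and 5.21 in Monolayer, just above the limit. The difference was 2.23 ± 0.29, 4.69-fold (adjusted p = 0.000952). Another ERBB3 probe set read 6.86 and 6.31 in iCSC, 4.23 and 4.37 in Sphere and 4.99 and 4.56 in Monolayer. With that probe set ERBB3 was under the limit in Monolayer and would not be a member. The other Schwann and glial markers were followed because of ERBB3. Of 4 markers found on the array, S100B, SOX10 and GFAP were under the limit on all 6 arrays, so ERBB3 was the measured one.

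Of 7 channels and transporters, 1 was higher in iCSC than in Monolayer, 4 were lower and 2 were not called. CHRNA9, a nicotinic acetylcholine receptor subunit of cochlear hair cells, had 8.28 and 8.75 in iCSC, 2.62 and 2.72 in Sphere and 6.18 and 5.26 in Monolayer, and was 6.94-fold higher in iCSC than in Monolayer (adjusted p = 0.000618). PIEZO1, a mechanically gated cation channel, had 6.96 and 7.56 in iCSC, 2.55 and 2.63 in Sphere and 8.40 on both Monolayer arrays, and was 2.20-fold lower in iCSC (adjusted p = 0.00596). FXYD5, a subunit that modulates the sodium pump and cell adhesion, had 6.12 and 6.58 in iCSC, 3.97 and 4.39 in Sphere and 10.61 and 10.26 in Monolayer. It was 17-fold lower in iCSC than in Monolayer (adjusted p = 3.43e-05), and another probe set showed the same order with all 4 iCSC and Monolayer values above the limit.

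None of the 8 secreted, matrix and protease genes was higher in iCSC, and 7 were lower, with a median of -2.94, the lowest of the roles. PRSS23, a secreted serine protease, had 5.51 and 5.90 in iCSC, 2.80 and 3.17 in Sphere and 12.76 and 12.85 in Monolayer. Its difference of -7.10 ± 0.21, or 137-fold, was the largest negative one among the members (adjusted p = 1.68e-06), and in iCSC it stood less than 2-fold above the limit. A further PRSS23 probe set read 4.46 and 3.95 in iCSC, under the limit, and 11.86 and 11.91 in Monolayer. SPOCK1, a testican proteoglycan of the matrix, had 7.51 and 6.73 in iCSC, 2.19 and 2.21 in Sphere and 12.51 and 12.69 in Monolayer, 44.6-fold lower in iCSC than in Monolayer (adjusted p = 1.25e-05). HTRA1, a secreted protease that cleaves matrix proteins, had 7.06 and 6.96 in iCSC, 3.56 and 3.40 in Sphere and 10.23 and 9.99 in Monolayer, 8.58-fold lower (adjusted p = 2.17e-05). SERPINI1, the neuroserpin that inhibits tissue plasminogen activator, was 23.5-fold lower (adjusted p = 7.83e-06). BMP1, which trims procollagens, was 2.86-fold lower (adjusted p = 0.00116), but without probe sets that can bind several transcripts its difference was -0.19 (adjusted p = 0.635).

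The 17 actin, membrane and vesicle proteins included 2 that were higher in iCSC than in Monolayer, 11 that were lower and 4 that were not called. ANXA1, a calcium-dependent phospholipid-binding annexin, had 12.49 and 10.81 in iCSC, 2.78 and 3.35 in Sphere and 12.41 and 12.26 in Monolayer. Its first iCSC array lay just above both Monolayer arrays and its second below them, and the difference of -0.69 ± 0.51 was not called (adjusted p = 0.291). Without the first iCSC array it was -1.52 and was called (adjusted p = 0.00676), and without the second it was 0.15. MYO10, the motor protein of filopodia, had 8.94 and 8.81 in iCSC, 2.78 and 2.87 in Sphere and 10.57 and 10.58 in Monolayer, 3.25-fold lower in iCSC (adjusted p = 0.000155). Without probe sets ending in x_at or s_at its difference was -3.04 in place of -1.70. Another MYO10 probe set read 2.45 and 2.46 in iCSC, under the limit, and 5.63 and 5.36 in Monolayer, and one more read 3.56 and 3.11 in iCSC and 7.26 and 6.75 in Monolayer. PHLDB2, which anchors microtubules near focal adhesions, had 9.43 and 8.88 in iCSC, 4.32 and 4.60 in Sphere and 11.13 and 11.34 in Monolayer, 4.23-fold lower (adjusted p = 0.000393). IQGAP2, a scaffold of actin and small GTPases, had 8.55 and 7.04 in iCSC, 2.43 on both Sphere arrays and 11.87 and 11.88 in Monolayer, 16.9-fold lower (adjusted p = 0.00045). Its difference was -4.83 without the first and -3.33 without the second iCSC array. In MYO10, PHLDB2 and IQGAP2 every iCSC array thus lay between the Sphere and the Monolayer arrays.

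CAVIN1, which coats caveolae, had 5.82 and 6.26 in iCSC, 4.65 and 4.93 in Sphere and 9.70 and 9.78 in Monolayer. TNNT1, the slow skeletal troponin T, had 6.70 and 5.95 in iCSC, 4.11 and 4.07 in Sphere and 11.33 and 11.16 in Monolayer. The iCSC means of CAVIN1 and TNNT1 were 2.06-fold and 2.51-fold above the limit, and their Monolayer means lay far above it. They were 13-fold and 30.2-fold lower in iCSC than in Monolayer (adjusted p = 2.40e-05 and 1.80e-05). A further CAVIN1 probe set read 6.42 and 7.08 in iCSC, and another 3.10 and 3.11, under the limit. CARMIL1, a regulator of actin capping protein, was 3.17-fold higher in iCSC (adjusted p = 0.00184), at 8.24 and 7.72, with 4.93 and 4.92 in Sphere and 6.06 and 6.57 in Monolayer. ARHGAP28, a GTPase-activating protein for RhoA, had the widest gap between iCSC arrays of all members, 6.94 and 5.22, beside 7.64 and 8.21 in Monolayer. It was called lower (adjusted p = 0.024), and 7 of 16 alternatives did not call it. Its difference was -2.70 without the first and -0.99 without the second iCSC array, against -1.85 with both.

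Of 12 intracellular signalling proteins, 4 were higher in iCSC than in Monolayer, 6 were lower and 2 were not called. GNB4, a beta subunit of heterotrimeric G proteins, had 10.95 and 10.38 in iCSC, 2.32 and 2.52 in Sphere and 7.47 and 7.48 in Monolayer. It was 9.10-fold higher in iCSC than in Monolayer (3.19 ± 0.22, adjusted p = 6.61e-05). PRKG1, the cyclic GMP-dependent protein kinase of smooth muscle, had 9.97 and 9.13 in iCSC, 4.93 and 4.68 in Sphere and 7.08 and 7.37 in Monolayer, and was 5.02-fold higher in iCSC (adjusted p = 0.000857). PAWR, a pro-apoptotic protein, stood close to its Monolayer level, with 9.48 and 9.26 in iCSC, 3.23 and 3.37 in Sphere and 9.15 and 9.20 in Monolayer. The difference was 0.20 ± 0.16 (adjusted p = 0.327). A further PAWR probe set was also close, with means of 8.82 in iCSC and 8.84 in Monolayer. Others went either way, with means of 5.69 and 6.91, 3.81 and 5.17, and 6.51 and 4.71 in iCSC and Monolayer. INPP4B, a lipid phosphatase that restrains PI3-kinase signalling, had 6.89 and 5.65 in iCSC, 3.31 and 2.74 in Sphere and 9.48 and 9.44 in Monolayer, 9.12-fold lower in iCSC (adjusted p = 0.000897). Its difference was -3.81 without the first and -2.57 without the second iCSC array.

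The 15 enzymes were split evenly, with 4 higher, 4 lower and 7 not called and a median difference of 0.00. CYP1A1, a cytochrome P450 induced through the aryl hydrocarbon receptor, had 7.65 and 7.73 in iCSC, 3.13 and 3.18 in Sphere and 5.89 and 5.38 in Monolayer, and was 4.14-fold higher in iCSC (adjusted p = 0.000385). GALNT10, which starts O-linked glycosylation, had 5.92 and 5.22 in iCSC, 4.61 and 4.55 in Sphere and 10.02 and 9.99 in Monolayer, 21.6-fold lower in iCSC (adjusted p = 2.31e-05). GPX8, a peroxidase of the endoplasmic reticulum, had 9.20 and 9.17 in iCSC, 2.50 and 2.38 in Sphere and 10.11 and 10.06 in Monolayer, 1.86-fold lower in iCSC (adjusted p = 0.00248). Its other probe set had the same pattern of measured and unmeasured cultures, but its iCSC values of 8.65 and 8.02 overlapped those of Monolayer, 8.23 and 8.14.

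None of the 7 non-coding RNAs was higher in iCSC, 3 were lower and 4 were not called. Of the 20 other proteins 2 were higher, 8 were lower and 10 were not called. RBM24, an RNA-binding protein that sets muscle splicing, was one of the 2, with 10.32 and 9.96 in iCSC, 3.14 and 2.39 in Sphere and 6.54 and 5.80 in Monolayer. It was 15.7-fold higher in iCSC than in Monolayer (3.97 ± 0.34, adjusted p = 0.00017). TMEM158, a membrane protein induced by RAS signalling, had 10.12 and 9.56 in iCSC, 4.72 and 4.53 in Sphere and 12.14 and 12.29 in Monolayer, 5.20-fold lower in iCSC (adjusted p = 0.000154). TMEM200A stood only just above the limit in iCSC, at 5.49 and 5.13, with 2.26 and 2.32 in Sphere and 9.82 and 9.89 in Monolayer, 23.3-fold lower in iCSC (adjusted p = 7.08e-06).

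The pathways around the members were followed through 31 gene lists, of which 21 held a member. In all 33 members stood on a list and 85 on none. In Sphere against Monolayer 30.0% of all tested genes were called higher and 29.1% lower (59.0% in either direction), and in iCSC against Sphere 19.3% were higher and 19.2% lower (38.5%). The 3 comparisons share their arrays, so their values are set side by side. Of 51 tested patterning transcription factors, 7 were members. In Sphere 16 of the 51 were higher and 24 lower than in Monolayer (median -0.50). In iCSC 17 were higher and 9 lower than in Sphere (0.27), and 24 were higher and 16 lower than in Monolayer (0.24). Of 31 tested YAP and TEAD pathway genes, LATS2, AMOTL2, AJUBA and AXL were members and 5 were under the limit in both spheroid cultures. In Sphere 4 of the 31 were higher and 20 lower than in Monolayer (median -2.35). In iCSC 13 were higher and 6 lower than in Sphere (0.07), while 3 were higher and 20 lower than in Monolayer (-0.84). Of 21 tested Notch pathway genes, in which NOTCH1 and NRARP were members, 5 were higher and 13 lower in Sphere than in Monolayer (median -1.15). In iCSC 7 of the 21 were higher and 2 lower than in Sphere (0.37), and 6 were higher and 8 lower than in Monolayer (-0.45). Other lists with a member went the other way. Of 43 tested neuronal channel, receptor and synapse genes, 27 were higher and 10 lower in Sphere than in Monolayer. In iCSC 9 of the 43 were higher and 21 lower than in Sphere. For 29 tested G protein-coupled receptors these counts were 17 and 9, and 6 and 17. The lists with a member thus did not share 1 pattern. Members are part of all these counts, and their direction against Sphere is set by the rule.

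Many members had more than 1 probe set, and those not used by the rule gave a second reading of the same RNA on the same arrays. For 76 members there were 140 further probe sets, and 42 members had none. Of the 140, 89 were under the limit on all 6 arrays. A further 21, from 19 genes, showed the same pattern as the member, and 30, from 24 genes, were under the limit in Sphere and on some or all arrays of iCSC or Monolayer. None reached the limit on a Sphere array. In 15 genes, 19 further probe sets were measured on both Monolayer arrays and under the limit on both iCSC arrays, so that with them the gene would not be a member. These genes were AJUBA, AXL, BAIAP2, BMP1, CAVIN1, F2RL2, GALNT10, HYCC1, INPP4B, LYPD6, MYO10, NRP1, PAWR, PRSS23 and SH3RF1. The rule takes the brightest probe set, so dimmer ones tend to be under the limit. The 19 genes with a second probe set of the same pattern included PITX1, SIX2, AJUBA, LATS2, PAWR, CD55, FXYD5 and CAVIN1. PITX1 read 9.65 and 9.22 in iCSC, 1.93 and 1.95 in Sphere and 7.08 and 6.54 in Monolayer with its second probe set. LATS2 read 8.50 and 8.71, 2.49 and 2.05, and 9.41 and 9.54 in iCSC, Sphere and Monolayer. For DLX1 the second probe set read 7.46 and 7.40 in iCSC and 3.57 and 3.46 in Sphere but 4.37 and 4.80 in Monolayer, under the limit there. The further probe sets of GNB4 and DLX2 were under the limit on all arrays.

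Members were found on all autosomes except 21, and 1 was on X. Chromosome 9 held 13 members (11%), against 3.9% of the genes measured in Monolayer, and 3 of the 218 genes under the limit in both spheroid cultures (1.4%). The median iCSC minus Sphere difference over all tested genes of chromosome 9 was 0.45, against 0.01 over all tested genes. The Sphere minus Monolayer median of chromosome 9 was -0.04 and the iCSC minus Monolayer median 0.41. Whether the level of the whole chromosome bears on its count of members was not tested. By gene order in RefSeq, 7 of the 13 lay in the last 20% of the chromosome's genes on the array. These were POMT1, NACC2, NOTCH1, AGPAT2, DIPK1B, TOR4A and NRARP. Over the 90 tested genes there the medians were 0.48 for iCSC minus Sphere, -0.37 for Sphere minus Monolayer and 0.15 for iCSC minus Monolayer. Over the 327 tested genes of the rest they were 0.45, 0.03 and 0.51. Members lay next to each other in the array's gene order in 4 pairs, DLX1 with DLX2, SLC25A51 with SHB, AGPAT2 with DIPK1B, and TOR4A with NRARP. Chromosome 5 held 11 members (9.3%), against 4.8% of Monolayer-measured genes, with medians over its tested genes of -0.30 for iCSC minus Sphere, -0.06 for Sphere minus Monolayer and -0.41 for iCSC minus Monolayer. There IQGAP2 and F2RL2 had 1 array gene between them. Chromosome 15, with an iCSC minus Sphere median of 0.47, held 4 members (3.4%), against 3.5% of Monolayer-measured genes. Chromosomes 5, 9 and 15 are only part of the set, and a relation between chromosome median and share of members was not tested.

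**Figure D5:**
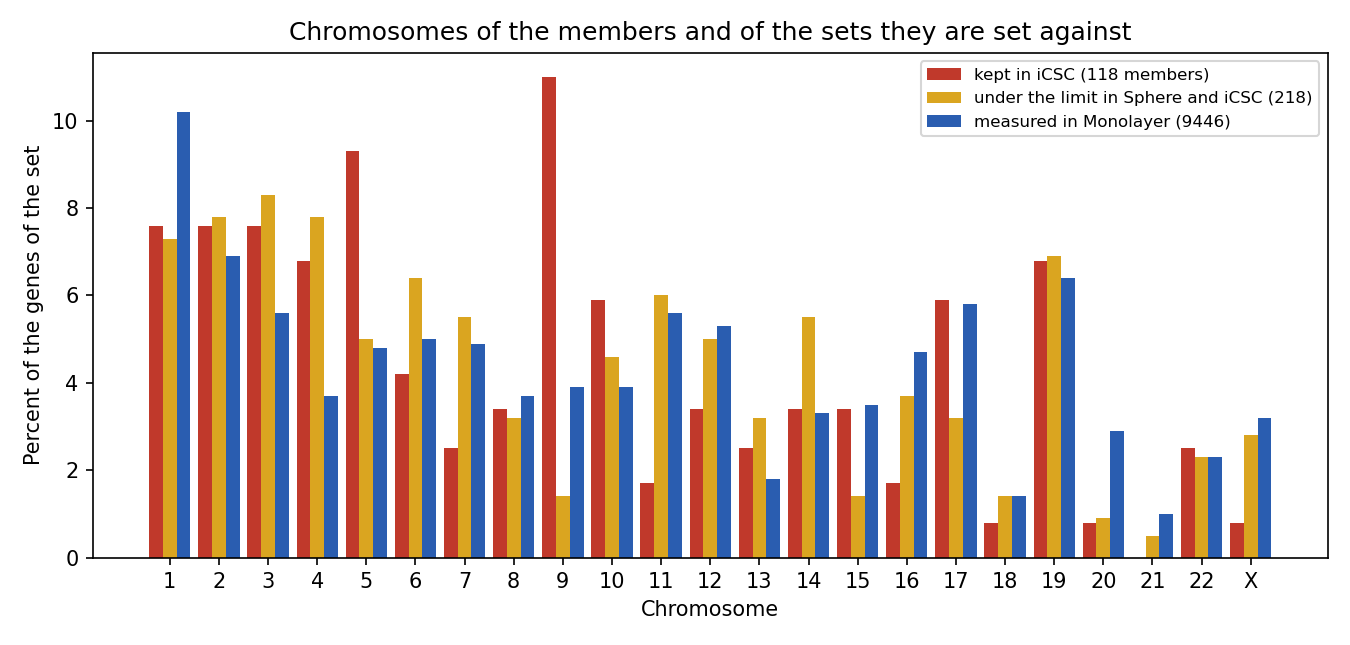
Percent of genes on each chromosome (vertical axis; bars start at 0) for the 118 members, the 218 genes under the limit in Sphere and iCSC, and the 9446 genes measured in Monolayer. Chromosome 9 holds 11% of the members, 1.4% of the 218 and 3.9% of the Monolayer genes.

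The arrays of a culture resembled each other, with Pearson's r over tested genes of 0.984 for iCSC, 0.992 for Sphere and 0.996 for Monolayer. Over the members the median gap between the 2 arrays was 0.34 in iCSC, 0.20 in Sphere and 0.17 in Monolayer, and in iCSC 7 members had a gap over 1. The 3' minus 5' signal of the ACTB controls, a sign of RNA integrity, was 1.47 and 1.40 in iCSC, 1.22 and 1.21 in Sphere and 1.25 and 1.16 in Monolayer. The labelled cell type was checked on 12 sympathetic neuroblast markers, of which 10 were measured in iCSC, 11 in Sphere and 4 in Monolayer, and DBH was under the limit on all arrays. The log2 of their summed signal was 13.91 and 13.71 in iCSC, 15.77 and 15.53 in Sphere and 10.34 and 10.02 in Monolayer. The sum was thus highest in Sphere and lowest in Monolayer, although the members were measured in both iCSC and Monolayer. Single markers differed from the sum. GATA2 was lower in iCSC (4.31 and 4.41) than in Monolayer (5.95 and 5.96), as was ISL1 (7.78 and 7.92 against 9.04 and 8.94). The log2 summed signal of 8 fibroblast markers was 13.71 and 13.08 in iCSC, 13.68 and 13.79 in Sphere and 11.39 and 11.32 in Monolayer, lowest in Monolayer. Single fibroblast markers did not all follow this sum. COL1A2 had 13.01 and 12.02 in iCSC but 4.99 and 4.22 in Sphere, and PDGFRA was highest in Monolayer, at 10.54 and 10.27. The log2 summed signal of 6 epithelial markers was 8.20 and 8.48 in iCSC, 8.34 and 8.59 in Sphere and 13.05 and 12.88 in Monolayer, highest in Monolayer, with EPCAM and CDH1 under the limit on all arrays. Of 7 leukocyte markers 6, and of 6 endothelial markers 5, were under the limit on all arrays. The leukocyte exception was PTPRC (CD45), at 2.85 and 2.87 in iCSC, 12.42 and 12.52 in Sphere and 11.64 and 11.84 in Monolayer, and so under the limit in iCSC alone. The endothelial exception was TEK, at 3.65 and 3.68 in iCSC, 2.89 and 3.03 in Sphere and 7.85 and 7.70 in Monolayer. The part of these marker shifts in the member values was not tested.

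The limit itself admits genes by small steps. Just inside it, FHIP1A had 5.009 and 5.185 in iCSC, 4.854 and 4.996 in Sphere and 5.099 and 5.106 in Monolayer, and CDH24 and HASPIN were each within 0.009 of it. Just outside, EAF2 missed by 0.001 on a Monolayer array, and the Notch ligand JAG2 by 0.007 and ATXN1-AS1 by 0.009 on an iCSC array. Limits at log2 4.5, 5.5 and 6 gave 107, 121 and 123 genes, and of the 118 members 68, 82 and 54 were among them. The number of genes with this pattern thus varied little with the limit, while the genes themselves changed.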

How the data were processed

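The authors deposited 1 log2 signal per probe set and array for 6 arrays, made with GCRMA, with Partek as the other program, per the submitters' processing notes. Versions, settings and the use of Partek are not known from the labels. GCRMA corrects background from base composition and draws unexpressed probe sets to a narrow low band, so folds from that band are given as lower bounds with values under log2 5 set to 5, written "at least". Array medians lay between 2.78 and 2.83. The number of arrays limits the precision.

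Of 54675 probe sets, 62 were controls, 41091 had a single gene symbol, 1801 several and 11721 none. Symbols were updated by Entrez identifier against a RefSeq table of GRCh38.p14, which matched 41037 and also gave chromosomes and gene order. A gene was tested where its probe set reached log2 5 on at least 2 of 6 arrays, which left 10459 genes, and all members were among them. limma 3.58.1 in R 4.3.3 was fitted to all 6 arrays with 1 mean per culture and without covariates. Empirical Bayes moderation of the variances followed the mean signal, on 3 residual degrees of freedom. Tests were two-sided, with Benjamini-Hochberg adjustment over all tested genes and calls at an adjusted p under 0.05. Levels of Sphere against the other cultures were used by the rule and got no test for members. Python 3.11.15 and matplotlib 3.10.9 made the figures.

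The members and gene lists were chosen with earlier results of these data known, and the roles were assigned after the members were known. The text names part of the genes given by a rule that took members with the 12 highest iCSC and the 12 highest Monolayer means, the 10 largest called differences each way, the 3 genes nearest the limit on each side and up to 6 members per list. NACC2, ISL2, TSHZ3, CD55, PIEZO1, MYO10, FXYD5, CARMIL1, INPP4B, CYP1A1, the chromosome 9 members and the further probe sets were added after their values were seen. The alternatives are filters, a floor, other normalizations, probe set choices, variance models, a replicate block and leaving out each array.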

Additional observations from a re-analysis of the deposited data

How the results depend on the processing

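Leaving out 1 array at a time gave 120 to 153 genes by the rule, which included all 118 members because fewer arrays had to pass. In the comparison of iCSC with Monolayer it gave 16 to 23 members higher, 46 to 54 lower and a median of -0.63 to -0.40, the last without the first Monolayer array. With a filter at log2 7, which 76 members passed, the median was -1.36. Without variance moderation 15 members were higher. All other counts of members and of tested genes stayed within 1.5 times their value under the alternatives run. Rule counts were 149 genes with the most variable probe set (114 of the 118 among them), 103 without probe sets ending in x_at or s_at (93), 120 after renewed quantile normalization (113) and 117 after centring arrays on their median (115). Of the 81 members called, 63 to 81 were called in the same direction under the alternatives that tested all of them, and none had the opposite sign in any alternative. Whether equal replicate numbers mark paired arrays is not stated in the labels. Correlations of deviations between arrays of equal number were 0.17, -0.05 and 0.02, which cannot settle this with 2 arrays per culture. With the replicate block 23 members were higher and 55 lower, the median was -0.54, and 5891 genes were called in all. Signals under log2 5 are treated as background by choice, which limits what can be said of levels in Sphere.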

Other observations

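Probe sets outside the gene table showed the same pattern. Of 13522 probe sets with several gene symbols or none, 43 were at or above log2 5 on both iCSC and both Monolayer arrays and under it on both Sphere arrays. Among the single-symbol probe sets 222 did so before 1 was taken per gene. The reverse case, genes measured in Sphere and Monolayer and under the limit on both iCSC arrays, held 65 genes, against the 118 members.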
